A study of Mus musculus with 67 samples.

Results

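A set of 833 regulatory elements was open in p0-1, p2 and pMN neural progenitors (NPs) at day 6 of differentiation but stayed at a low level in p3 NPs from day 4 onwards, out of 111638 elements measured. The elements were selected on their own accessibility: mean values were taken per day and cell type, and at day 6 each of p0-1, p2 and pMN had to be at least 1.5 above p3 and at least 7, while the p3 means at days 4, 5 and 6 all had to be below 6.5. The unit is the authors' variance-stabilized value (VST), a log2 scale of read counts normalized between samples, on which 7 equals 115 normalized counts and 6.5 equals 78.0. The day 6 part of the rule was met by 1606 elements, of which the other 773 had a p3 mean of at least 6.5 on some day. At the edge of the rule, the members nearest Dio2 and Iglon5 had their smallest excess over p3 at 1.501 each, and the elements nearest Mms22l and Map7d2, at 1.500 and 1.499, fell outside it. Since the rule used p3 at days 4 to 6 and every type at day 6, those values are given as a description with no test, and only NMPs and p0-1, p2 and pMN at days 4 and 5 were tested.

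The samples came from HM1 mouse embryonic stem cells differentiated through neuromesodermal progenitors (NMPs) into spinal cord NPs in 100 nM retinoic acid and 0, 10, 100 or 500 nM of SAG, an agonist of Smoothened that stands in for Sonic hedgehog (Shh). Cells were crosslinked with formaldehyde and treated with the Tn5 transposase. They were then stained for intracellular transcription factors and sorted before bulk ATAC-seq libraries were made (CaTS-ATAC). Each of the 67 libraries is thus a sorted population of 1 type, and replicates were separate differentiations. NMPs without SAG were collected at day 3, and at days 4, 5 and 6 p0-1 came from 0 and 10 nM SAG, p2 from 10 and 100 nM, and pMN and p3 from 100 and 500 nM, with 2 or 3 replicates in each of the 25 conditions. In bulk samples, fewer cells with an open element and less opening in every cell cannot be told apart. The libraries held 9298160 to 29985325 reads in elements, and those of p3 held 9298160 to 23973955. Elements at some marker genes followed the sort labels. The element nearest the start site of Olig2, the pMN factor, had its highest mean at day 6 in pMN (11.19 against 8.70 to 9.99 in the other NPs). That of Dbx1 was highest in p0-1 (11.32 against 9.31 to 10.06) and that of Foxa2 in p3 (10.66 against 8.09 to 8.24). Others did not follow the labels. At day 6 that of Nkx2-9, a p3 marker, was higher in pMN (11.03) than in p3 (10.90), and no element was nearest Nkx2-2. Among the p2 markers, Irx3 and Pax6 were highest in p0-1 (11.55 and 11.93, against 11.32 and 11.73 in p2). Nkx6-1 was highest in pMN (11.34, against 11.25 in p2). The NMP markers T, Nkx1-2 and Cdx2 averaged 10.87 in NMPs and 7.48 to 7.94 at day 6. Foxa2 and Shh, which also mark floor plate, averaged 9.40 ± 0.45 (SD, n = 4) in p3 at day 6 and 7.17 to 7.29 in the other NPs. They thus moved with the split that defines the members, and their part in it was not tested. In NMPs the same elements averaged 9.36 ± 0.15 (n = 3), so a high level was not particular to p3. The elements of the neuronal genes Tubb3, Elavl3 and Isl1 averaged 10.32 ± 0.14 in NMPs, and 10.01 to 10.40 in NPs at day 6. The p2 library at day 6 in 100 nM SAG, replicate 3, stood apart on these lists, with 8.17 for the floor plate elements and 9.66 for those of the neuronal genes Tubb3, Elavl3 and Isl1, where the other 5 p2 libraries of that day lay between 6.93 and 7.32 and between 10.34 and 10.72. Without it the rule found 836 elements, 831 of them among the 833.

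Open chromatin marks stretches of DNA that transcription factors can reach, and most enhancers of developmental genes lie away from promoters, in introns or between genes. In the ventral neural tube, graded Shh sets up progenitor domains in order from p3, next to the floor plate, through pMN, which makes motor neurons, and p2 to p1 and p0. Each domain is known by the transcription factors it expresses, such as Olig2 in pMN and Pax6 with Nkx6-1 in p2. SOX factors are expressed across neural progenitors, homeodomain factors and bHLH factors that bind E-boxes act in patterning and in neurogenesis, and Foxa2 is a pioneer factor of the floor plate that is also made in p3.

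The 300 bases at the center of 6 of the elements are shown for what the results turn on: Prg4 and Dnajc24 name members with the largest excess over p3, Nlgn1 a member among the largest rises after the NMP stage, and Dbx1, Irs1 and Gm10421 members that differed most between pMN and p0-1. Sequences are from RefSeq GRCm38 (the build is also called mm10), plus strand, and capitals mark words that were searched on both strands, which are listed with the shares of elements that hold them. A gene name here is the gene whose start site the deposited annotation gives as nearest, and no target gene was tested.
Prg4 (chr1:150587531-150587830; the element is in an intron of Hmcn1): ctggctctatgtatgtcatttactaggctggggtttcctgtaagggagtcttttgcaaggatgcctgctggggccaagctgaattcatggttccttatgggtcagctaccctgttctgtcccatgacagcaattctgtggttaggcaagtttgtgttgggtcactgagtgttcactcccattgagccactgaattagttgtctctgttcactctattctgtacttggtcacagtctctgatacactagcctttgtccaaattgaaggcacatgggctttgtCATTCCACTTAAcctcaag
Dnajc24 (chr2:106213833-106214132; intergenic): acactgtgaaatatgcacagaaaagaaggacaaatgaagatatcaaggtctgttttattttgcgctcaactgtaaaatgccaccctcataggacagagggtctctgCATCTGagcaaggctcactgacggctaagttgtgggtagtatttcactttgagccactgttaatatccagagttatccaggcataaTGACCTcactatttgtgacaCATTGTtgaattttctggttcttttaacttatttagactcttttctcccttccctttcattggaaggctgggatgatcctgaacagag
Nlgn1 (chr3:26145842-26146141; an intron of Nlgn1): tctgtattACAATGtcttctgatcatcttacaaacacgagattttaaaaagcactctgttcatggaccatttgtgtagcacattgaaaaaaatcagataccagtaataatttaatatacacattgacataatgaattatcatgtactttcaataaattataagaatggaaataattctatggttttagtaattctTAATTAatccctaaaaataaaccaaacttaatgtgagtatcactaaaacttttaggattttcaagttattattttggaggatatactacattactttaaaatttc
Dbx1 (chr7:49696465-49696764; intergenic): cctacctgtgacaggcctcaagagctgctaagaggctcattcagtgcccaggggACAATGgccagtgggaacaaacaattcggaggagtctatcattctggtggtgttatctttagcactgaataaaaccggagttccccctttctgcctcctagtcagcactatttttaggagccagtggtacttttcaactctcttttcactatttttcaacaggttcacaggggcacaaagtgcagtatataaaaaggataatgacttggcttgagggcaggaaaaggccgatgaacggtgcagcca
Irs1 (chr1:82235754-82236053; an exon of Irs1): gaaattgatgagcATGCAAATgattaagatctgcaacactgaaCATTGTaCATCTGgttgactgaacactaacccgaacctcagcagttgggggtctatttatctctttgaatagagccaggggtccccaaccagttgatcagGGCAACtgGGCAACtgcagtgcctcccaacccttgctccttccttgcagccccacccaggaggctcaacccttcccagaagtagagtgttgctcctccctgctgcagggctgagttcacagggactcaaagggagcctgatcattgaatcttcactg
Gm10421 (chr12:117039518-117039817; an intron of Ptprn2): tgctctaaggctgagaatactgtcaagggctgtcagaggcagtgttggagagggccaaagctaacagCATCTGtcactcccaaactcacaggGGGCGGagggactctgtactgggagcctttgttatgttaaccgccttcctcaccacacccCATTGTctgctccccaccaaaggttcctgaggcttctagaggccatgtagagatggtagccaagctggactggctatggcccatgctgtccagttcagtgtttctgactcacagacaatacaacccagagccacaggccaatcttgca
In the Prg4 sequence the capitals join a TEAD and an NKX word that overlap by 1 base. The Dnajc24, Nlgn1, Dbx1, Irs1 and Gm10421 elements each hold a SOX word, and the Irs1 element holds a POU word and 2 copies of an RFX word.

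The elements were closed in NMPs and rose in steps in p0-1, p2 and pMN. The median VST over the 833 elements was 4.03 ± 0.06 in NMPs (SD of sample medians, n = 3), and at day 4 it was 6.10 ± 0.56 in p0-1, 6.39 ± 0.36 in p2 and 6.36 ± 0.18 in pMN (n = 6 each). At day 5 it reached 7.72 ± 0.22 in p0-1 and 7.82 ± 0.18 in p2 (n = 6 each) and 7.55 ± 0.20 in pMN (n = 5), and at day 6 8.13 ± 0.35 (n = 5), 8.21 ± 0.20 (n = 6) and 7.83 ± 0.24 (n = 4). In p3 it was 5.19 ± 0.14 at day 4, 5.50 ± 0.15 at day 5 (n = 5 each) and 5.33 ± 0.31 at day 6 (n = 4), as the rule required. For each NP type n counts the libraries of both its SAG concentrations. Same-numbered libraries of p0-1, p2 and pMN deviated together at days 4 and 5, so n is not a count of independent differentiations. The members together took 0.0576% to 0.0702% of the reads in elements in NMPs, 1.01% to 1.64% in p0-1 at day 6 and 0.0895% to 0.187% in p3 at day 6. At the level of 7 that the rule set for day 6, 14 members were open in NMPs, 159 to 239 at day 4 in p0-1, p2 or pMN, and 635, 698 and 651 at day 5 in p0-1, p2 and pMN.

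**Figure D1:**
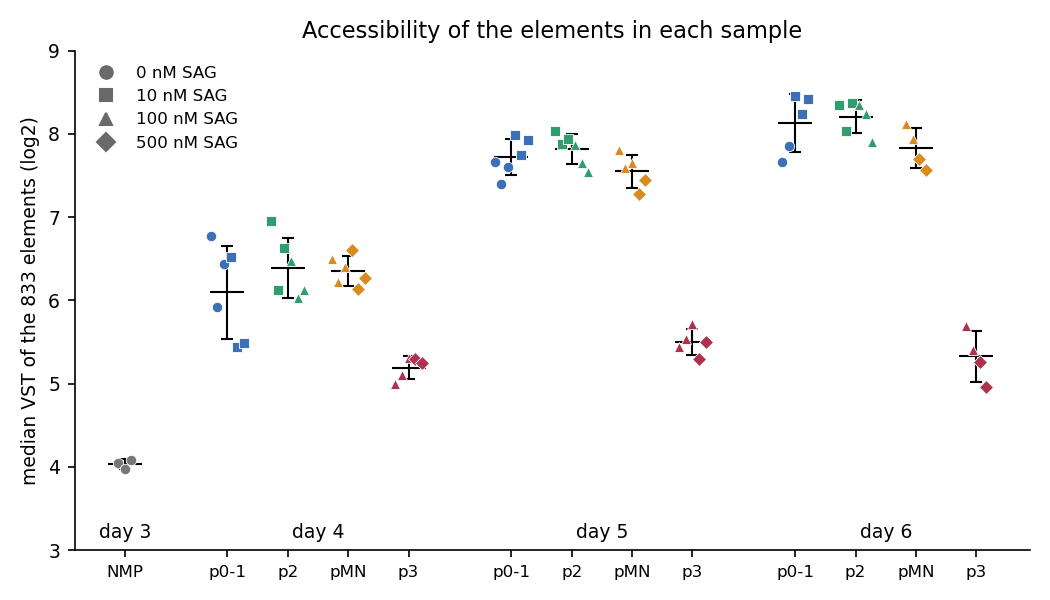
Median VST (log2) over the 833 elements in each of the 67 samples, by cell type and day, with a symbol for each SAG concentration. Black lines are the mean and SD over samples. From day 4 to day 6 all p3 samples lie below all p0-1, p2 and pMN samples of their day. The rule required this of the element means at day 6 and also capped the p3 means at days 4 and 5. The low place of p3 was thus selected on each of these days. The widest spread, 5.44 to 6.77, is that of p0-1 at day 4.

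Day 4 libraries differed by differentiation as well as by type. In each of the 6 conditions of p0-1, p2 and pMN at day 4, replicate 1 had the highest median over the members. For p0-1 in 0 nM SAG the medians were 6.77, 5.92 and 6.44 in replicates 1, 2 and 3, and in 10 nM SAG they were 6.52, 5.44 and 5.49. The NMP marker elements varied between the same libraries, at 8.34, 8.78 and 9.04 in 0 nM and 8.52, 8.79 and 9.63 in 10 nM, so that replicate 1 had the lowest value of each condition. The part of NMP chromatin in the spread of the members was not tested.

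The step from NMPs to day 4 was tested with limma on all 111638 elements with no filter on low values, so that all 833 members were tested, and a call needed both a Benjamini-Hochberg adjusted p under 0.01 and a VST difference above 1. In p0-1, 611 members rose and 9 fell (23.3% and 18.6% of all elements), in p2 666 rose and 8 fell (28.0% and 20.2%), and in pMN 664 rose and 8 fell (28.1% and 20.4%). The median difference of the members was 1.78, 2.07 and 2.03, where that of all elements was 0.03, 0.11 and 0.12. Of all 24893 elements that were open in the 3 types at day 6, 25.8% to 27.6% were called higher, with medians between -0.31 and -0.20. Of the 773 elements with a higher p3 level, 86.7% to 90.04% were called higher, against 73.4% to 80.0% of the members. In all 3 types 594 members rose, and 690 in at least 1 (71.3% and 82.8%, against 20.8% and 31.4% of all elements). The 3 comparisons use the same 3 NMP samples. They took same-numbered libraries of both SAG concentrations as independent, so the SEs and p-values do not allow for this pairing. With the replicate number as a block, 614, 666 and 664 members were called higher in p0-1, p2 and pMN.

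The 3 members with the largest rise to day 4 were nearest 4930503O07Rik, an uncharacterized transcript, Nrxn3 and Nlgn1, which encode synaptic adhesion proteins of neurons, and each lies in an intron of the gene it is named for. The Nlgn1 element (chr3:26145294-26146690) had 3.64, 6.46 and 6.74 normalized counts in NMPs, a lowest, median and highest value of 460, 612 and 852 in p2 at day 4, and 26.2, 45.5, 63.8, 82.5 and 99.9 in p3 at day 4. All p2 samples at day 4 were above all p3 samples, and its p2 rise was 5.33 ± 0.19 in VST (SE, adjusted p = 1.17e-13). The Nrxn3 element (chr12:89771108-89771860) had no reads in 2 of the 3 NMP samples and 2.42 normalized counts in the other, against 274, 308 and 426 as lowest, median and highest in pMN at day 4. It was called higher in p0-1, p2 and pMN, by 4.80 ± 0.40, 5.12 ± 0.23 and 5.38 ± 0.20 in VST. The 4930503O07Rik element (chr1:194217947-194218737) rose by 5.18 ± 0.38 to 5.57 ± 0.19. In p3 at day 4 these elements already stood above their NMP level, with means of 60.5 ± 21.3 (4930503O07Rik), 64.5 ± 17.2 (Nrxn3) and 63.6 ± 29.1 (Nlgn1) normalized counts (SD, n = 5), and at day 6 the p3 means were 27.6 ± 13.3, 20.2 ± 11.9 and 33.9 ± 6.84 (n = 4).

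The few members that were open in NMPs took another course. The 3 with the highest NMP level were nearest Mir692-2, in an intron of the glutamate receptor gene Grik3, nearest Slc4a5, a bicarbonate transporter gene, and in the intron of Cdc42ep4. The Mir692-2 element (chr4:125544870-125546541) had 383, 393 and 425 normalized counts in NMPs, and fell to 80.2, 91.4 and 120 as lowest, median and highest in p0-1 at day 4, by 1.96 ± 0.16 in VST (adjusted p = 1.76e-07). From day 4 to day 5 it rose in pMN by 1.10 ± 0.12 (adjusted p = 2.14e-07), and at day 6 pMN had 625, 631, 644 and 707, while its 4 p3 samples were at 53.4, 60.0, 61.2 and 77.5. The Slc4a5 element (chr6:83233830-83234686) and the Cdc42ep4 element (chr11:113733471-113735695) were also called lower at day 4 in p0-1, p2 and pMN, by 1.54 to 1.95. At day 5 the Cdc42ep4 element had a mean of 198 ± 19.0 in p0-1 and 56.6 ± 10.2 in p3, and at day 6 411 ± 75.6 and 74.9 ± 8.35.

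From day 4 to day 5 the members rose again. In p0-1, 608 were called higher and 0 lower (10.8% and 3.74% of all elements), in p2 582 and 0 (11.3% and 4.48%), and in pMN 493 and 0 (11.2% and 4.39%). Their median difference was 1.54, 1.38 and 1.18 in VST, where that of all elements was 0.03, 0.04 and 0.01. Below the threshold on size, 821, 814 and 793 members had a difference above 0, and 760, 783 and 753 had an unadjusted p under 0.05 in either direction, as did 50.4%, 60.8% and 60.6% of all elements. At least 1 type called 666 members higher and all 3 types called 447 (80.0% and 53.7%, against 17.6% and 5.25% of all elements). At either of the steps before and after day 4, 807 members (96.9%) were called higher in at least 1 type, against 40.5% of all elements and 32.7% of those open in the 3 types. For the elements open in the 3 types the share called higher was 14.4% to 15.4%, and for the 773 elements with a higher p3 level 34.0% to 47.6%. The rule required a level of at least 7 at day 6, and 674 members (80.9%) had an NMP mean under 5. A rise by day 6 was thus selected in most members, which all elements were not. The rule did not set at which step the rise came.

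**Figure D2:**
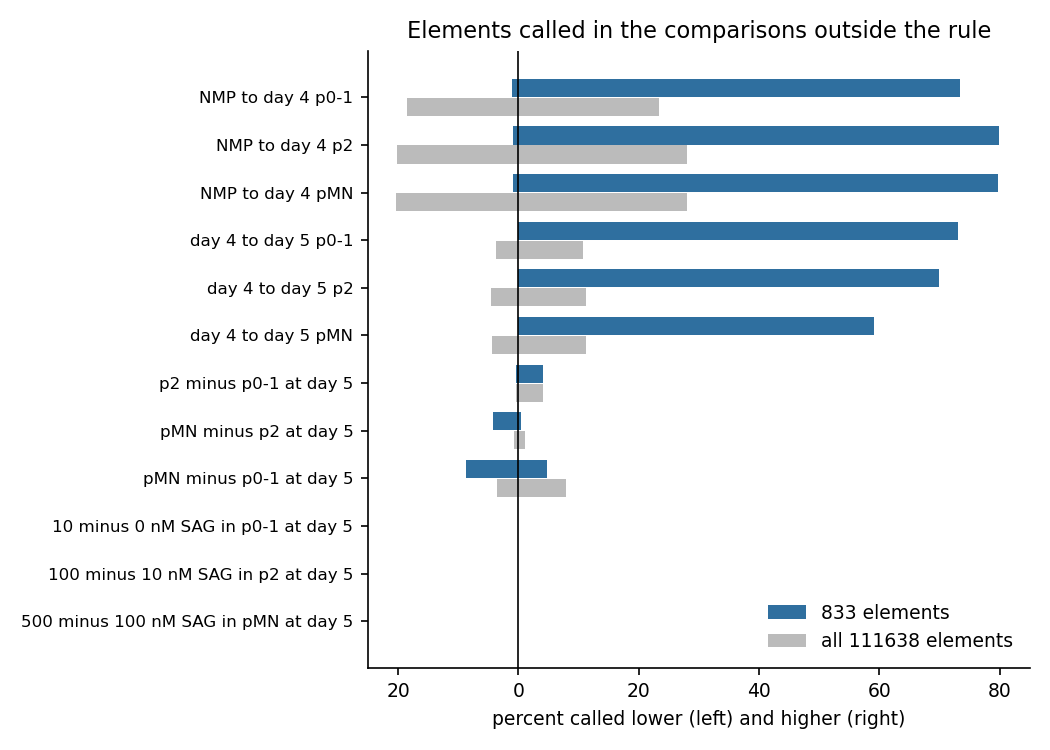
Percent of the 833 elements (blue) and of all 111638 elements (gray) called higher (right of 0) and lower (left of 0) in each of the 12 limma comparisons, without a replicate block. The steps from NMPs to day 4 and from day 4 to day 5 call 59.2% to 80.0% of the 833 elements higher, and the comparisons between SAG concentrations call 0.

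The largest rises from day 4 to day 5 were at 3 intergenic members nearest uncharacterized transcripts. That nearest 1700019M22Rik (chr12:97004098-97005039) had no reads in 2 NMP samples and 1.21 normalized counts in the other. In p0-1 it had a lowest, median and highest value of 2.36, 8.50 and 24.7 at day 4 and of 331, 389 and 463 at day 5, without overlap, a difference of 4.26 ± 0.24 in VST (adjusted p = 3.65e-09). In p3 it had 0, 3.00, 3.94, 6.06 and 8.10 at day 4 and 18.8, 27.4, 34.1, 34.3 and 36.9 at day 5. Of its central 300 bases, 98.7% lie in repeats masked in the reference, where the median of the members was 8%, and reads there may be shared with other copies. The elements nearest F930015N05Rik (chr11:64596758-64597935) and C230029F24Rik (chr1:49659031-49659456) rose by 3.12 ± 0.17 to 4.19 ± 0.29 in the 3 types.

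No member was called lower at day 5, a count that rests on 1 element at the threshold. The largest mean falls were at the element nearest Lratd1 (chr12:14088941-14089401), with differences of -0.54 ± 0.30, -0.61 ± 0.15 and -0.77 ± 0.14 in p0-1, p2 and pMN (adjusted p = 0.152, 0.00206 and 0.00012), and at that nearest A630019I02Rik in an intron of Cmya5 (chr13:93116873-93117557), with 0.01 ± 0.29, -0.78 ± 0.20 and -0.999 ± 0.153 (adjusted p = 0.976, 0.00366 and 1.45e-05). The A630019I02Rik element was called lower in pMN with samples centred on their medians, by voom and without replicate 3, with differences of -1.05, -1.02 and -1.16 (adjusted p = 2.34e-06, 3.05e-05 and 4.87e-05). The Lratd1 element had 61.8, 131 and 132 normalized counts in NMPs, already near its pMN level of day 4, which had a lowest, median and highest value of 105, 132 and 158. In p3 it had 30.3, 67.8, 74.2, 80.2 and 102 at day 4 and 12.7, 15.2, 16.6, 20.2 and 29.1 at day 5, so that its p3 samples of day 4 and day 5 did not overlap.

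Sorted by the first day on which NMPs, or the mean of p0-1, p2 and pMN, reached 7, 14 members (1.68%) were open in NMPs, 193 (23.2%) from day 4, 466 (55.9%) from day 5 and 160 (19.2%) only from day 6. Late opening was less common in the other sets: of the 773 elements with a higher p3 level, 571 (73.9%) were open from day 4, 130 (16.8%) from day 5 and 5 (0.647%) from day 6, and of the 24893 elements open in the 3 types, 17391 (69.9%) were already open in NMPs. The rule puts a ceiling on the p3 level but none on the other types, and these shares carry no test. Members that opened at day 4 had a higher p3 level at that day, with a median of 5.96, than those that opened at day 5, with 5.03, and at day 6, with 4.60. By day 6 the p3 medians of these classes were 5.29, 5.41 and 5.37.

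**Figure D3:**
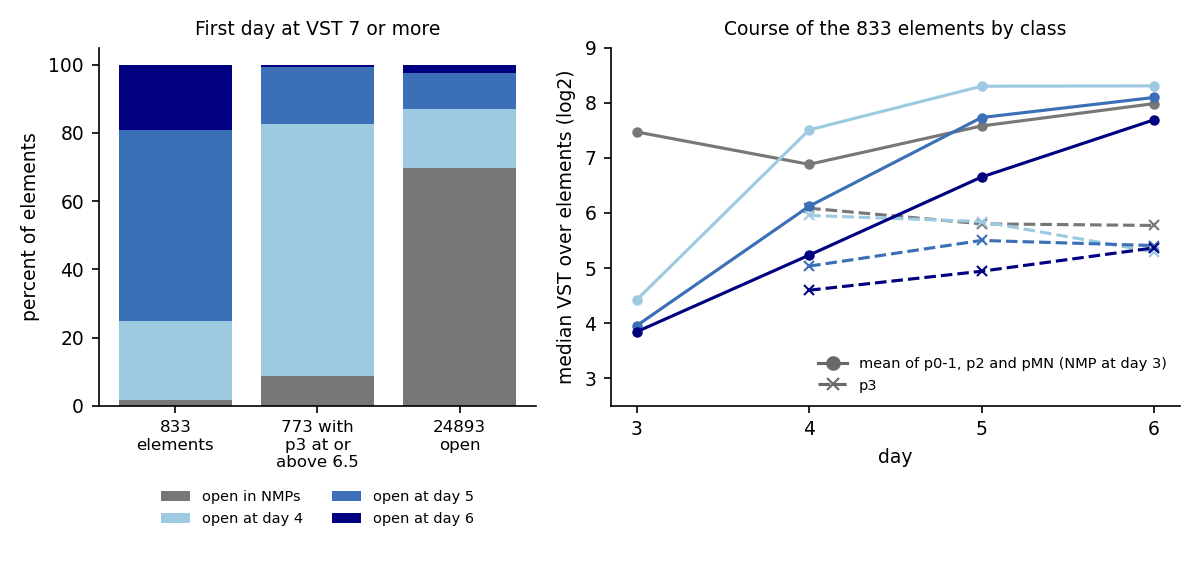
Left, percent of elements first at VST 7 or more in NMPs, at day 4, at day 5 or at day 6, for the 833 elements, the 773 elements with a higher p3 level and the 24893 elements open in p0-1, p2 and pMN at day 6. Right, median VST (log2) of the 833 elements by class and day, with solid lines for NMPs and the mean of p0-1, p2 and pMN and dashed lines for p3. The day 5 class, 55.9% of the elements, goes from 3.95 in NMPs to 7.73 at day 5, and its p3 line stays between 5.03 and 5.50.

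The p3 level of the members was low but not that of NMPs. In 709 of the 833 elements the p3 mean at day 4 was above the NMP mean, in 373 by 1 or more, and the median difference was 0.91, where the mean of p0-1, p2 and pMN was 1.97 above NMPs. The p3 mean of day 5 was above that of day 4 in 583 elements, and that of day 6 was above that of day 5 in 324. On all 3 days the p3 mean was below 5 in 106 elements, and in 291 its highest value was 6 or more, close under the ceiling. The mean of the other types exceeded p3 by a median of 1.04 at day 4, 2.20 at day 5 and 2.71 at day 6, and by at least 1.5 in 194, 717 and 833 elements. In the elements open in the 3 types the same medians were -0.03, -0.03 and 0.05. In 23 members the mean of the other types was not above p3 at day 4. Only 3 members had no reads at all in some p3 sample of day 6.

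The members with the largest excess over p3, taken in the type nearest to p3, were intergenic or in introns and lay far from start sites. The element nearest Cops8, a subunit of the COP9 signalosome (chr1:90467243-90468298, 136 kb from the start site), had 2.42, 2.70 and 7.54 normalized counts in NMPs. At day 6 it had 585, 788, 988, 1192 and 1421 in p0-1, 672, 883, 1047 and 1197 in pMN and 5.77, 10.7, 40.7 and 47.8 in p3. Its p3 samples did not overlap those of the other types from day 5 on, where p0-1 had a lowest, median and highest value of 252, 461 and 755 and p3 had 23.4, 29.9, 37.7, 45.8 and 57.2. The element was picked for its day 6 excess and its p3 means were capped by the rule, so the low p3 level was selected. It was called higher at both steps in all 3 types, by 2.34 ± 0.27 to 2.70 ± 0.26 and then by 2.73 ± 0.16 to 2.93 ± 0.21.

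The element nearest Prg4, which encodes the lubricant proteoglycan lubricin (chr1:150587238-150588125, in an intron of Hmcn1), reached 1788, 2039, 2116, 2288 and 2527 normalized counts in p0-1 at day 6, and 436, 559, 942 and 1042 in pMN. In p3 it had 28.2, 45.7, 56.0, 68.2 and 113 at day 5 and 6.93, 8.74, 36.3 and 41.7 at day 6. The element nearest Gask1b (chr3:80064592-80065797) had 10.7, 14.1, 15.8, 18.8 and 22.9 in p3 at day 5 and 227, 229, 233, 291 and 315 in pMN, and holds none of the searched words in its central 300 bases. The element nearest Dnajc24, a chaperone gene (chr2:106213646-106214320), spread most between libraries of p0-1, with a lowest, median and highest value of 7.83, 72.4 and 149 at day 4 and with 361, 433, 1006, 1041 and 1050 at day 6, where the lower pair of values is that of 0 nM SAG. The same pair of 0 nM libraries had 199 and 345 at the Nlgn1 element at day 6, where the 10 nM libraries had 750, 842 and 987.

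**Figure D4:**
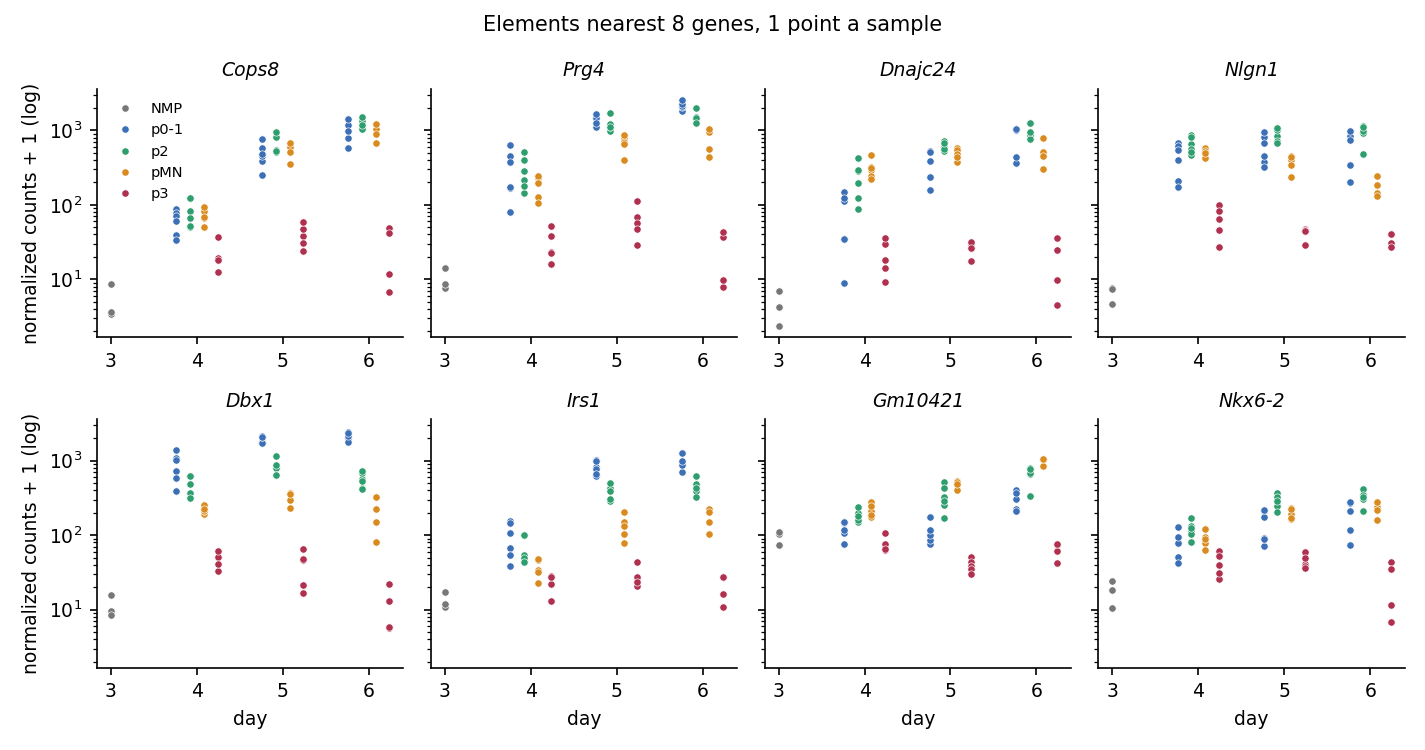
Normalized counts plus 1 (log axis) of 8 elements, named by the nearest gene, in each sample by day (3 to 6), with a color for each cell type. In all 8 panels the p3 samples lie lowest at days 5 and 6, and the order of the other types differs between panels, with p0-1 highest at Dbx1 and Irs1 and pMN highest at Gm10421.

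Among p0-1, p2 and pMN the members differed most between pMN and p0-1. At day 5 the means of the 3 types lay within 1 VST of each other in 693 members (83.2%), with a median spread of 0.58, and the highest of them was p0-1 in 333 members, p2 in 356 and pMN in 144. Between p2 and p0-1, 34 members were called higher in p2 and 4 lower (4.13% and 0.468% of all elements). Between pMN and p2, 3 were called higher in pMN and 35 lower (1.04% and 0.675%), and between pMN and p0-1 39 were higher in pMN and 72 lower (7.92% and 3.48%). As shares of the members, 4.20% were lower in pMN than in p2 and 8.64% lower than in p0-1, where 0.261% and 1.29% of the elements open in the 3 types were. Higher in pMN than in p0-1 were 4.68% of the members and 4.18% of those open elements, and higher in p2 than in p0-1 were 4.08% and 1.97%. In the pMN comparisons the members leaned to lower values in pMN, with a median difference of -0.30 from p2 and -0.21 from p0-1, where those of all elements were -0.02 and -0.04. These comparisons pooled unlike SAG concentrations. pMN and p0-1 shared none, so type and concentration cannot be told apart between them. At 100 nM, which p2 and pMN shared, the mean of the sample medians at day 5 was 7.69 in p2 and 7.68 in pMN (n = 3 each). The part of SAG in the lean was not tested. Without replicate 1 only 3 members were called between p2 and p0-1 and without replicate 2 only 2, and without replicate 2 or replicate 3 15 were called between pMN and p2.

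The members most above in pMN were a second Nrxn3 element (chr12:89041471-89042330, in an intron of Nrxn3) and the Gm10421 element (chr12:117039139-117040198). The Nrxn3 element had a lowest, median and highest value of 45.8, 69.9 and 87.4 normalized counts in p0-1 at day 5, of 88.9, 131 and 305 in p2, and 248, 308, 429, 444 and 538 in pMN, so p0-1 overlapped neither p2 nor pMN. The difference of pMN from p0-1 was 2.29 ± 0.19 in VST (adjusted p = 1.53e-07). The Gm10421 element was 2.03 ± 0.16 higher in pMN (adjusted p = 1.03e-07) and, unlike most members, had 72.7, 104 and 111 normalized counts in NMPs.

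The members most below in pMN were the elements nearest Irs1, which encodes an adaptor of the insulin receptor (chr1:82235111-82236698), and nearest Dbx1 (chr7:49696204-49697027, 59.8 kb from the start site), the homeodomain factor of the p0 and p1 domains. The Dbx1 element had a lowest, median and highest value of 1706, 1908 and 2110 normalized counts in p0-1 at day 5 and of 643, 792 and 1165 in p2, and 231, 295, 358, 363 and 364 in pMN and 15.8, 20.4, 44.9, 47.1 and 64.2 in p3. No 2 of the 4 types overlapped, and the order p0-1, p2, pMN, p3 was that of the domains from dorsal to ventral. Much of this order was set in advance. The rule kept p3 low, and the Dbx1 and Irs1 elements were picked for a low pMN level against p0-1. The tested differences were -1.23 ± 0.12 for p2 from p0-1 (adjusted p = 4.03e-05), -1.30 ± 0.15 for pMN from p2 (adjusted p = 9.89e-05) and -2.53 ± 0.11 for pMN from p0-1 (adjusted p = 8.08e-10). The Irs1 element was lower in the same order, with a difference of -2.54 ± 0.19 between pMN and p0-1 (adjusted p = 5.89e-08), and its pMN values of 78.5, 102, 131, 150 and 202 at day 5 stayed above its p3 values of 19.5, 22.4, 25.1, 26.4 and 42.0.

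The SAG concentrations within a type were compared at day 5. No member was called in p0-1 between 0 and 10 nM (3 elements, 0.00269%, were called higher in all and 0.0% lower), in p2 between 10 and 100 nM (0.0% of all elements in either direction) or in pMN between 100 and 500 nM (0.0%). At an unadjusted limma p under 0.05 there were 356, 260 and 252 members and 14701, 12096 and 3507 of all elements (13.2%, 10.8% and 3.14%), and voom on the recovered reads called 0 members in each. Without replicate 3, 20 members were called lower in 100 nM p2. Replicate numbers paired the samples of day 5, and with the number as a block 26 members were called higher in 10 nM p0-1 (0.301% of all elements higher, 0.23% lower), 16 lower in 100 nM p2 (0.726% lower, 0.0582% higher) and 3 lower in 500 nM pMN (0.135% lower, 0.00269% higher). The median difference of the members was 0.32 in p0-1, -0.26 in p2 and -0.33 in pMN, and 703, 134 and 24 of the 833 had a difference above 0. In pMN the size of this difference is above that between the mean levels of day 5 and day 6, 7.55 and 7.83. Members share their libraries, so these counts are not independent observations.

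By sample, the medians of the members in p0-1 at day 5 were 7.67, 7.40 and 7.60 in 0 nM SAG and 7.99, 7.74 and 7.93 in 10 nM, without overlap. In p2 they were 8.04, 7.87 and 7.94 in 10 nM and 7.87, 7.66 and 7.55 in 100 nM, and in pMN 7.80, 7.59 and 7.65 in 100 nM and 7.27 and 7.44 in 500 nM. The pMN samples of the 2 concentrations did not overlap, and those of p2 nearly met. Marker elements moved with these differences. In p2 the floor plate elements had 7.33, 7.37 and 7.53 in 10 nM and 7.39, 7.62 and 7.86 in 100 nM, and the neuronal elements 10.36, 10.35 and 9.69 and 10.01, 9.93 and 9.54, so that each replicate number was higher for the first and lower for the second in 100 nM. In pMN the floor plate elements had 7.30, 7.35 and 7.67 in 100 nM and 7.74 and 7.70 in 500 nM, without overlap. In p0-1 they had 7.44 to 7.61 in 0 nM and 7.43 to 7.60 in 10 nM, while the NMP elements were lower in 10 nM, at 8.03 to 8.13 against 8.18 to 8.25. The part of these markers in the SAG differences was not tested. At day 4 the p0-1 difference had the opposite sign, by -0.25, -0.48 and -0.94 in replicates 1, 2 and 3 against 0.32, 0.35 and 0.32 at day 5. At day 6, which the rule used, it was 0.57 in each of the 2 replicates measured in both concentrations.

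The members were distal. Of the 833, 454 (54.5%) were intergenic, 356 (42.7%) in introns, 17 (2.04%) in exons and 4 (0.480%) at promoters, where 44.2%, 41.1%, 5.88% and 7.41% of all elements were. Those open in the 3 types at day 6 were 26.5% promoters. The median distance to a start site was 72.0 kb for members, 55.8 kb for the 773 elements with a higher p3 level and 32.6 kb for all elements, and 332 members (39.9%) lay beyond 100 kb. Members were narrower, with a median width of 945 bases against 1198 for the 773 and 1379 for all those open in the 3 types, and 44.3% of their central 300 bases were G or C, against 46.0% and 55.7%. Within 50 kb of another member lay 51 members (6.12%), and within 50 kb of an element at least 1.5 higher in p3 than in each other type, and at least 7, at day 6 lay 104 (12.5%), where 13.6% of the other elements open in the 3 types lay as close to one. They were spread over all chromosomes but Y, with 16 to 62 on each.

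Words that transcription factor families bind were counted in the central 300 bases on both strands. The SOX word ACAATG was in 287 members (34.5%), in 31.7% of the 773 elements with a higher p3 level, in 14.7% of the elements open in the 3 types and in 21.1% of all elements. The E-box CATCTG was in 29.1% of members and 17.0% of the elements open in the 3 types, and the E-box CAGCTG in 16.5% and 18.5%. The homeodomain word TAATTA was in 10.4% and 4.89%, the POU word ATGCAAAT in 4.56% and 1.76%, and the NKX word CACTTAA in 4.80% and 2.41%. For the nuclear receptor word AGGTCA the shares were 23.9% and 15.7%, for NFI (TTGGCA) 16.2% and 11.7%, for TEAD (CATTCC) 17.4% and 13.8%, for RFX (GTTGCC) 9.96% and 11.9%, for LEF/TCF (CTTTGAT) 4.32% and 2.97%, for FOXA (TGTTTAC) 2.04% and 2.72% and for GLI (GACCACCC) 0.480% and 1.12%. The GC-rich SP/KLF word GGGCGG, common at promoters, was in 5.52% of members and 37.0% of the elements open in the 3 types.

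A set closer to the members in place and timing was also counted. This further set, chosen after the values were seen, held 4833 intergenic and intron elements that were below 7 in NMPs and at least 7 in all 4 NP types at day 6, p3 included. In it the SOX word was in 30.5%, the E-box CATCTG in 26.2%, the homeodomain word in 9.89%, the nuclear receptor word in 23.7%, NFI in 16.7% and SP/KLF in 5.63%. TEAD was in 21.0% and in 17.4% of members, RFX in 13.7% and 9.96%, NKX in 3.89% and 4.80%, and LEF/TCF in 4.76% and 4.32%. The POU word was in 2.30% of this set and in 4.56% of members, the FOXA word in 4.51% and in 17 members (2.04%; 4.95% of all elements), the GLI word in 1.03% and in 4 members (0.480%), and the E-box CAGCTG in 22.3% and 16.5%. Only for CAGCTG was the gap above 4 percentage points. Of the 773 elements with a higher p3 level, 4.14% held the POU word and 3.23% the FOXA word. In the central 200 bases the POU word was in 2.5% of members and 3.1% of the 773, so it was not particular to the members. None of these shares was tested, a word is not a bound site, and the words lie in the reference and not in reads.

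**Figure D5:**
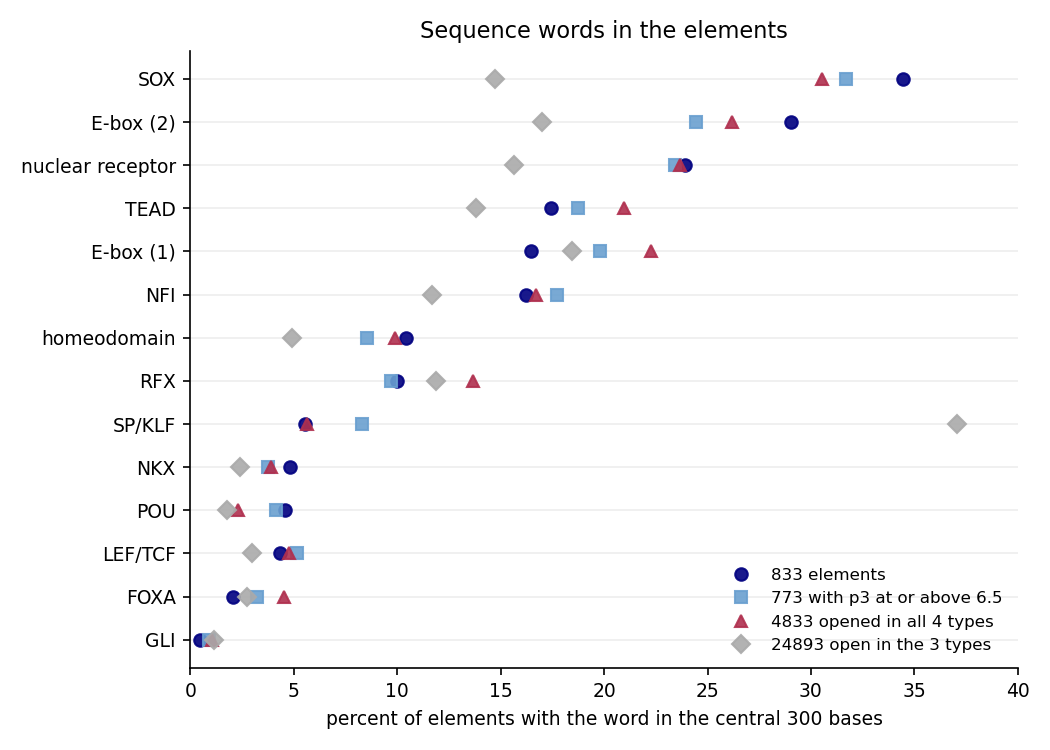
Percent of elements with each word on either strand of the central 300 bases, for the 833 elements, the 773 elements with a higher p3 level, the 4833 intergenic and intron elements opened in all 4 types and the 24893 elements open in p0-1, p2 and pMN at day 6. E-box (1) is CAGCTG and E-box (2) CATCTG, and the 833 elements hold the SOX word most often of all words, in 34.5%.

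The members were scattered over 751 nearest genes, 679 of them with 1 member. The most members at a gene were 4 of 27 elements, at the uncharacterized transcript 8030451O07Rik, followed by genes with 3 members each, among them Tenm3 (of 79 elements), which encodes a teneurin of neuronal wiring, Gria1 (of 37), an AMPA receptor subunit, Wwox (of 58), an oxidoreductase, Lmo7 (of 26), Chordc1 (of 20), Gm1653 (of 57) and 1700113H08Rik (of 19). The leading Tenm3 element (chr8:48399844-48401360) had a mean VST of 9.53, 9.87 and 8.73 in p0-1, p2 and pMN at day 6 and 5.71 in p3, the Gria1 element (chr11:56636279-56637561) 8.62, 7.59 and 7.56 and 4.78, and the 1700113H08Rik element (chr10:87239105-87240035) 9.53, 9.49 and 8.71 and 4.68. Of the 751 genes, 226 (30.1%) were also nearest to an element that was higher in p3 by the same margin at day 6. Of all 20787 genes with an element, 2333 were nearest to such an element, and the 226 are 9.69% of these. Genes with more elements have more chances to be in both groups, and the overlap was not tested.

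Among gene lists, guidance and adhesion genes had 16 members at 12 genes, out of 200 elements of the list that were open in the 3 types (8%), where members made up 3.35% of all 24893 open elements. Promoters were 26.5% of those open elements and 0.480% of the members, and the shares of the lists do not allow for element class. Of these 16, 15 rose from NMPs to day 4 and 16 from day 4 to day 5 in at least 1 type. Of all members, 82.8% and 80.0% did. They include elements nearest Robo1 (chr16:72610491-72611145), a Slit receptor, with 3.81 in VST in NMPs, 8.04 in p0-1 at day 5 and at most 4.44 in p3, nearest Slit2, a ligand of Robo receptors (7.72 in p0-1 and 5.04 in p3 at day 5), and nearest the cadherin genes Cdh11 (9.19 and 5.87) and Cdh6 (9.41 and 6.45). Sema3a and Sema5a, genes of semaphorins that steer axons, had 2 members and 1.

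Patterning transcription factors had 4 members at 4 genes, of 117 open elements (3.42%). They were Dbx1, Nkx6-2, Sp8 and Lmx1a, which encode factors of neural patterning. All 4 rose from day 4 to day 5 in at least 1 type and 3 from NMPs to day 4, where 80.0% and 82.8% of all members did. The Nkx6-2 element (chr7:139556306-139557336, in an intron of Inpp5a) was highest in p2, with a mean of 282 ± 58.4 at day 5 against 142 ± 67.3 in p0-1, 196 ± 30.7 in pMN and 44.0 ± 9.44 in p3. The Sp8 element (chr12:118840355-118841865) was highest in pMN, at 381 ± 29.6, and its p3 level stayed near 74.7 ± 10.2 at day 4 and 76.5 ± 8.39 at day 5, just under the ceiling. The Lmx1a element (chr1:167854666-167855680) opened late, with 86.7 ± 9.65 in p0-1 and 59.8 ± 9.23 in p3 at day 5 and 204 ± 22.1 and 63.4 ± 9.06 at day 6. At day 4 its mean VST was highest in p3, at 5.946 against 5.755, 5.809 and 5.762 in p0-1, p2 and pMN.

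Notch and proneural genes had 4 members of 86 open elements (4.65%), 2 nearest Jag1, a Notch ligand, and 1 each nearest Hes5, a Notch target, and Id4, an inhibitor of bHLH factors. All 4 were called higher at a step, 3 of them to day 4 and 3 to day 5, where 96.9% of all members were called at either step. The Hes5 element (chr4:154956776-154956996), 4.04 kb from the start site, had a mean VST of 4.58 in NMPs, 7.68 in p0-1 and 6.12 in p3 at day 4, and 7.68 and 5.11 at day 6. Of the Hedgehog pathway, 1 of 37 open elements (2.70%) was a member, nearest Gli3, the main repressor among the GLI factors (chr13:15107522-15108778). Its mean VST was 4.42 in NMPs, 9.74, 9.40 and 8.51 in p0-1, p2 and pMN and 5.83 in p3 at day 5, and 9.79, 8.95, 7.10 and 4.12 at day 6. Pan-neural factors had 3 members of 40, at Sox3 and Sox11, retinoic acid, Meis and Nr2f genes 3 of 101, at Meis1 and Cyp26a1, later progenitor and glial factors 2 of 73, and neuronal subtype factors 2 of 75. Hox genes had 0 of 55, the p3 and floor plate list 0 of 29 and the NMP list 0 of 9. These counts were not tested.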

How the data were processed

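ATAC-seq was measured in 67 sorted samples. The authors processed reads with nf-core/atacseq 1.2.0 against mm10, counted reads per consensus element and deposited DESeq2's variance-stabilized values, a log2 scale, together with a HOMER annotation of 133549 elements, of which 21911 have no values and were not used. Inverting the scale gave whole reads for 100% of values below 1000 reads (tolerance 0.001). Totals were 9298160 to 29985325 reads (median 20254011).

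The members and the gene lists were chosen with earlier results of these data known. All 111638 elements were fitted, unfiltered, with limma 3.58.1 (trend, R 4.3.3; SAG concentrations pooled except where they are compared) with two-sided tests, and calls needed a Benjamini-Hochberg adjusted p under 0.01 with a VST difference above 1. Tables, sequences and figures were made with Python 3.11.15, pandas 2.3.3, pysam 0.24.0 and matplotlib 3.10.9, and fits were tested on simulated data. Replicates are separate differentiations. Same-numbered samples deviated together, with a lowest correlation of 0.17 at day 4 and 0.10 at day 5 (medians 0.43 and 0.35; other pairs -0.22 and -0.18), so a replicate block was tried at each day. The main fits had no block and took each library as independent. In 15 samples the description has another replicate number than the title, and the title was used. No element lay beyond a chromosome end of the reference, and 90.3% of promoter elements had an end of their gene within 5000 bases.

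Named elements were the 4 with the largest smallest excess over p3, the 3 largest rises to day 4, the 3 highest in NMPs, the 3 largest rises and 2 largest falls from day 4 to day 5, the 2 most above and 2 most below in pMN against p0-1, the 2 on either side of the threshold, the leading member of the 8 genes with most members, and that of each patterning factor. Other elements named from gene lists, and the set of 4833 elements, were chosen after their values were seen. Certain genes of the marker and gene lists are not reported here, and the counts and means over those lists leave them out.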

Additional observations from a re-analysis of the deposited data

Results flagged for a closer look

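The effect of SAG in p0-1 had opposite signs at days 4 and 5. Between 10 and 0 nM the median VST over the 833 elements differed by -0.56 at day 4, with every replicate number lower in 10 nM (-0.94 to -0.25), and by 0.33 at day 5, with every number higher (0.32 to 0.35). The difference between the days was not tested.

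In the elements named by the rule, 23 of 384 groups of 4 to 10 samples held a sample far from the others by Dixon's criterion, and chance alone marks about 1 in 20. None of the 12 groups of sample medians did. In pMN at day 4, replicate 1 of 500 nM SAG was highest at 5 elements: Gask1b with 52.6 normalized counts (others 17.5 to 29.8), Nrxn3 with 426 (274 to 327), C230029F24Rik with 39.7 (14.6 to 23.0), Chordc1 with 192 (79.2 to 119) and Wwox with 211 (145 to 162). In p2 at day 5, replicate 3 of 10 nM was highest at Prg4 with 1732 (967 to 1225), 4930503O07Rik with 994 (666 to 762) and Dio2 with 393 (193 to 260.3), and at day 6 the sample of that number and concentration was highest at Prg4 with 1983 (1264 to 1522). In p2 at day 6, replicate 3 of 100 nM, the library with the high floor plate marker level, was lowest at Nlgn1 with 473 (925 to 1146), Gm10421 with 339 (656 to 805) and Gm1653 with 288 (638 to 809).

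Among p3 samples, Cops8 had 36.3 in 1 sample of day 4 (others 11.4 to 18.2), Nrxn3 had 87.1 (50.2 to 58.6) and Nlgn1 28.2 (44.0 to 45.7) at day 5, Gm10421 had 106 at day 4 (63.1 to 74.9) and Cdc42ep4 62.4 at day 6 (78.3 to 79.6). The remaining samples were p0-1 at day 4 for Mir692-2 with 120.3 (80.2 to 93.6), pMN at day 4 for Slc4a5 with 133 (89.5 to 105) and for 8030451O07Rik with 46.3 (34.4 to 37.8), pMN at day 5 for Slc4a5 with 121 (160.0 to 173), pMN at day 6 for Nrxn3 with 277 (331 to 341) and p0-1 at day 6 for Gria1 with 618 (308 to 372).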

How the results depend on the processing

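The rule found 542 elements with a p3 ceiling of 6.0, and 765 to 946 with replicate numbers left out in turn. A filter at a mean of 100 normalized counts over the samples compared left 141, 185 and 167 members for the steps from NMPs to day 4 in p0-1, p2 and pMN, of which 128, 169 and 156 were called. Since the members had a median of 6.42 normalized counts in NMPs, most could pass this filter only through high day 4 values. These calls were thus largely fixed by the filter and are no separate check. It left 559 in p0-1 and 523 in pMN from day 4 to day 5, of which 402 and 257 were called, and 722 to 737 for the day 5 comparisons between types. With a VST difference above 2 the steps to day 4 called 366, 436 and 424, those to day 5 257, 210 and 129, and the day 5 comparisons of p2 with p0-1, pMN with p2 and pMN with p0-1 called 0, 0 and 7. Left out in turn, the replicate numbers gave 2 to 57 calls between p2 and p0-1, 15 to 39 between pMN and p2, and 0 to 20 between SAG concentrations in p2. With the replicate block the SAG comparisons called 26, 16 and 3 members in p0-1, p2 and pMN, and no other count moved by over 1.5 times. With samples centred on their medians, 7 members were called between 10 and 0 nM in p0-1, and the NMP median was 4.27. The A630019I02Rik difference from day 4 to day 5 in p0-1, 0.01, was -0.0499 when centred, and -0.24 to 0.30 with replicate numbers left out. The causes were not tested. Depth limits the low values most, since 0 reads have a VST of 2.70.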
